A study of Mus musculus with 9 samples.

Results

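The 8 genes described here, Sox9, Sox4, Krt7, Krt19, Epcam, Cd24a, Prom1 and Spp1, are commonly used markers of bile duct epithelium and of the liver cells that share its features. They were taken from the table by gene symbol, and each is 1 of the 30519 transcript rows of the table, which holds 1 transcript per gene. Their levels were compared in whole livers of 4 miR-122 knockout mice (KO) and 5 floxed littermates (WT), all 6 weeks old. Of the KO mice, 1 was female and 3 were male, and of the WT mice 3 were female and 2 male. miR-122 is a microRNA made in large amounts by hepatocytes, the main epithelial cells of the liver. The labels name neither a Cre driver nor the cells in which the floxed allele was recombined, and miR-122 itself was not analysed here. PolyA RNA was sequenced from uncrosslinked powder of each liver, set aside from the material used for Argonaute CLIP.

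Bile ducts are lined by cholangiocytes, which share a fetal precursor, the hepatoblast, with hepatocytes. Hepatocytes normally carry little of the ductal keratins and surface proteins. In chronic liver injury, cells that combine ductal and immature features can spread into the lobule, a process called the ductular reaction, and hepatocytes can themselves take up ductal genes. Whole liver RNA does not separate these sources: more cells of a type and more RNA per cell cannot be told apart in any value given here.

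All 8 genes had a higher mean in KO than in WT livers, by 2.53-fold for Krt7 up to 17.5-fold for Spp1. Of the 8, 7 passed the filter on low values and all 7 were called higher in KO. Of the 10950 tested transcripts, 21.4% were called higher and 35.9% in either direction. In the authors' deposited table, 6 of the 8 had a q below 0.05 and were higher in KO, beside 13.6% of the 13540 transcripts with a q. For the 7 tested members, every KO library lay above every WT library, which held for 19.0% of tested transcripts. These counts lean on the filter (mean value of 1 or more across the libraries), because 5 of the 7 had a WT mean below 1 and passed through their KO values. Values are the authors' normalised signal, an abundance per transcript that is adjusted for transcript length and divided by a size factor per library. Fold values are ratios of group means. Log2 fold changes are on the log2(value + 1) scale, which understates the change of low transcripts, and their adjusted p comes from limma with Benjamini-Hochberg adjustment over all 10950 tested transcripts.

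Depth was recovered from the values and summed over the transcripts with a deposited mean level, so other transcripts are left out. In M (mega) reads, it was 15.2 to 21.9 for KO and 12.3 to 19.8 for WT libraries, and lowest in the WT males (13.0 and 12.3). Over all tested transcripts, 2345 were higher and 1589 lower in KO, with a median log2 fold change of 0.03. The normalised columns add up, in M, to 0.711 to 0.869 for KO and to 0.873 to 1.17 for WT libraries. When every library was scaled to the same total, the split became 4926 higher and 298 lower and the median 0.36, and the 7 tested members were still called higher, beside 45.0% of all tested. The label of WT replicate 3 says female, while the name of its column says male. Its Ddx3y, Eif2s3y and Uty values of 0.0422, 0.114 and 0 lay below the 2.36 or more of every male library, and the label female was kept.

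The region around the start site is shown for the 5 genes for which RefSeq (GRCm38.p6) gave a promoter window, because the members were higher together in KO livers. Each window runs from 250 bases before to 50 bases after the start site and is written 5′ to 3′ on the gene's strand. Capitals mark matches, on either strand, to the motifs ACAAAG and ACAATG (SOX), GGAATG (TEAD), TGGGAA (RBPJ), TGANTCA (AP-1), CCAAT (NF-Y), GGGCGG (SP1) and TATAAA (the TATA box).
Sox4, chr13:28953650-28953949, minus strand: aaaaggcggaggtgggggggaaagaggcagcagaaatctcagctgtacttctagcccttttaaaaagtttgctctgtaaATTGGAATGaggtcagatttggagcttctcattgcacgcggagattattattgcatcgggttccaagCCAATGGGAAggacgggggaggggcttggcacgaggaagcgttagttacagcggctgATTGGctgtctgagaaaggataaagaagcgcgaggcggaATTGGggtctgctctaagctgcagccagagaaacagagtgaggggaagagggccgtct
Krt7, chr15:101412153-101412452, plus strand: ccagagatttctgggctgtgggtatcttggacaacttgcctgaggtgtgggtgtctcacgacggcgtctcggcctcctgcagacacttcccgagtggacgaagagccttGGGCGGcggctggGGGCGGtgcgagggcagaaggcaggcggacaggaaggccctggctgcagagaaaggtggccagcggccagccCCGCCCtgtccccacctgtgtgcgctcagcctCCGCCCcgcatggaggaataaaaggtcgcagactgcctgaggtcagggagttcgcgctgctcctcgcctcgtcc
Epcam, chr17:87635729-87636028, plus strand: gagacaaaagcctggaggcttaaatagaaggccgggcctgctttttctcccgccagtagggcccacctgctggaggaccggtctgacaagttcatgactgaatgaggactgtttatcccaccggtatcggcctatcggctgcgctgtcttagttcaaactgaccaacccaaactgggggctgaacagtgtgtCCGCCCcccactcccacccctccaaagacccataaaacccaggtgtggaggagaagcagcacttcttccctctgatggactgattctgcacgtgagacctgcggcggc
Prom1, chr5:44101687-44101986, minus strand: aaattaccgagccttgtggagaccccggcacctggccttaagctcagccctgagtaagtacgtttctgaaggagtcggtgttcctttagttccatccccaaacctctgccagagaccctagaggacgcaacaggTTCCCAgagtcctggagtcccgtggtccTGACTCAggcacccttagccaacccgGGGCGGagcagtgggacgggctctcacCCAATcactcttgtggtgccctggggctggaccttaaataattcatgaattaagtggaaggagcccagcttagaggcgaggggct
Spp1, chr5:104434861-104435160, plus strand: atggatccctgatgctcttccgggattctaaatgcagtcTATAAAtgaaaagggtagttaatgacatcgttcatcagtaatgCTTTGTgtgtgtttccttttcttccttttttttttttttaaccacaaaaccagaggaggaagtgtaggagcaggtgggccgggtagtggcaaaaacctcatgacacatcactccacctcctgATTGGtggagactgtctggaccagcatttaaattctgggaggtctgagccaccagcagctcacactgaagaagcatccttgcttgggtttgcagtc
Prom1 and Spp1 each have a second window, which for both lies inside the gene, so 7 windows were searched. ACAAAG was found in 2 of the 7, both at Spp1, and in 18.7% of 32851 windows of the same length. ACAATG was in none of the 7 and in 12.6% of all. GGAATG was found only in the Sox4 window (14.7% of all) and TATAAA only in 1 Spp1 window (13.6% of all). TGGGAA was in the Sox4 and the Prom1 window (25.6% of all), and TGANTCA in both Prom1 windows (7.81% of all). CCAAT was in 3 of 7 (37.4% of all) and GGGCGG in 3 of 7 (35.7% of all). In Sox4, GGAATG overlaps a reverse CCAAT, and TGGGAA overlaps a forward CCAAT. With 7 windows these matches are a description and bear on no factor's activity.

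Sox9 and Sox4 are transcription factors of the SOX family; Sox9 marks the biliary lineage from the ductal plate onwards, and in mice both take part in bile duct development. Sox9 (chr11:112782224-112787760, plus strand, 1 annotated transcript) had 1.56, 1.74, 2.41 and 1.98 in KO livers, against 0.363, 0.443, 0.385, 0.615 and 1.11 in WT livers. The groups did not overlap, with the highest WT value in a male, replicate 5. The fold of means was 3.31, with 1.92 ± 0.368 in KO and 0.582 ± 0.309 in WT livers (SD, n = 4 KO and 5 WT here and below), and the log2 fold change was 0.90 (SE 0.155, 95% interval 0.55 to 1.25, limma adjusted p 0.00181). That is the smallest of the 7 tested members' log2 fold changes, at rank 762 of 10950.

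Sox4 (chr13:28948919-28953713, minus strand, 1 annotated transcript) had 6.18, 4.65, 8.21 and 4.97 in KO livers, against 0.540, 0.526, 0.512, 0.507 and 0.720 in WT livers. The lowest KO value was 6.46 times the highest WT value. Mean levels were 6.002 ± 1.61 in KO and 0.561 ± 0.0900 in WT livers, a 10.7-fold difference, with a log2 fold change of 2.14 (SE 0.143, interval 1.82 to 2.46, limma adjusted p 7.4e-06). The reads behind these values numbered 453 to 661 in KO livers and 25.5 to 43.2 in WT livers for Sox4, and 144 to 158 in KO livers and 24.1 to 43.1 in WT livers for Sox9. The 2 factors were at nearly the same mean in WT livers, whereas in KO livers every Sox4 value lay above every Sox9 value.

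**Figure D1:**
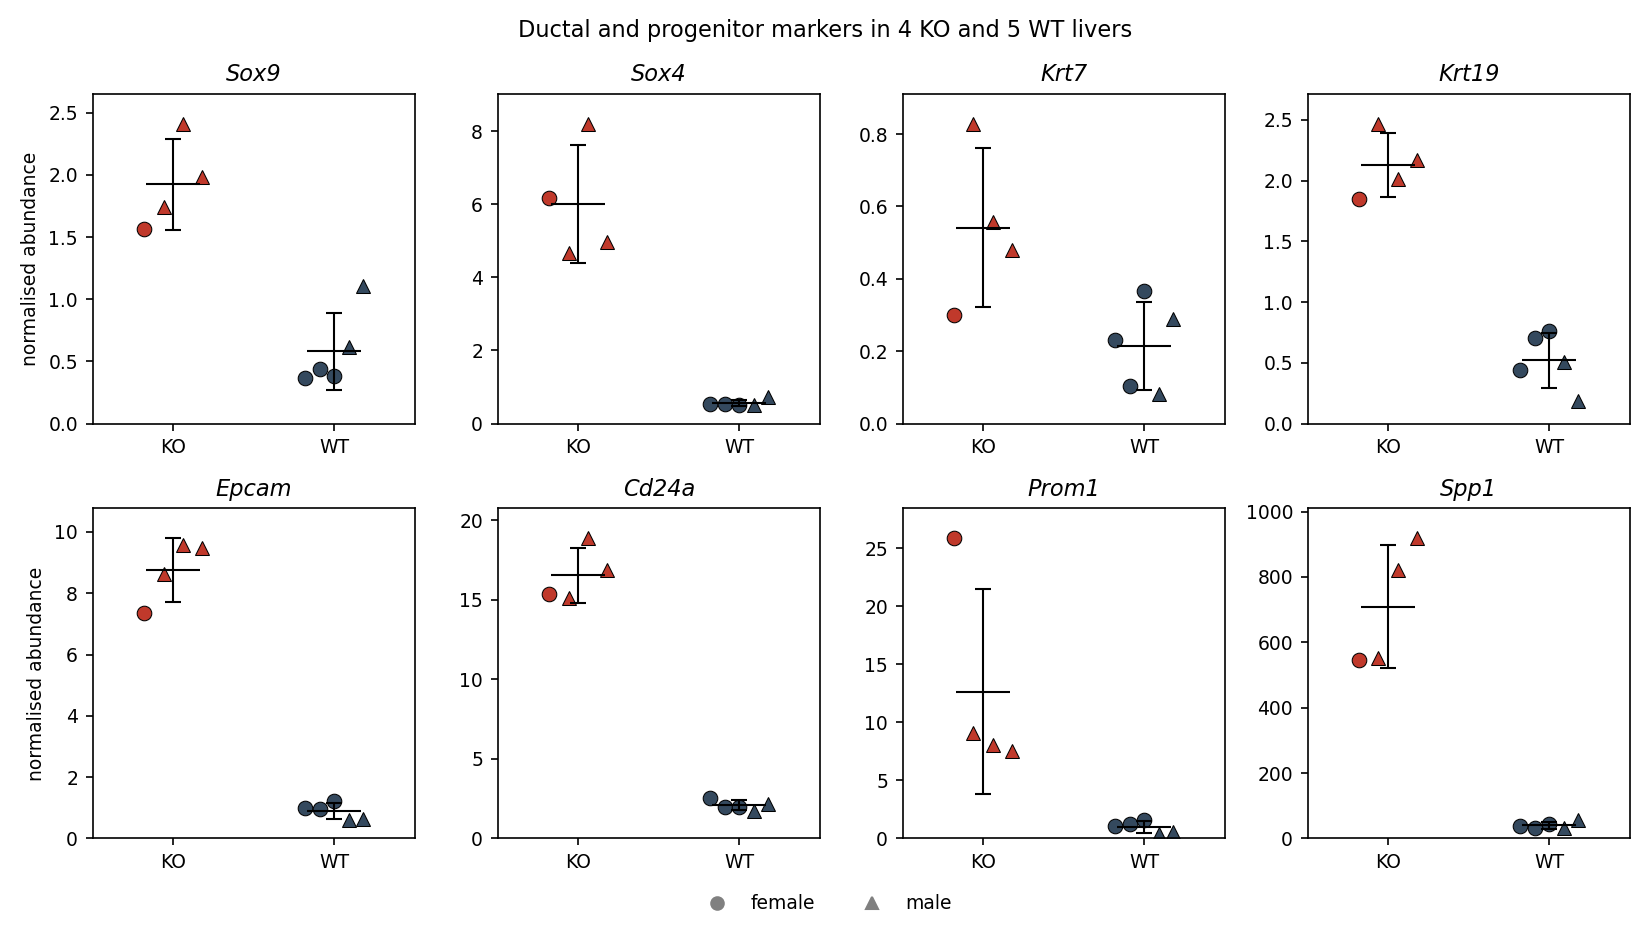
Normalised signal of the 8 genes in each library, with KO left of WT in each panel; circles are females and triangles males, and bars give the group mean and SD. Only Krt7 has KO and WT points that overlap, and the KO female stands above the other KO livers for Prom1 (25.9 against 7.56 to 9.10).

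Krt7 and Krt19 are intermediate filament proteins of simple and ductal epithelia and serve as histological markers of cholangiocytes. Krt19 (chr11:100140810-100148665, minus strand) had 1.85, 2.47, 2.02 and 2.17 in KO livers, against 0.443, 0.706, 0.760, 0.503 and 0.189 in WT livers. No KO liver reached down to the WT range. The fold of means was 4.09 (2.13 ± 0.264 in KO and 0.520 ± 0.228 in WT), and the log2 fold change was 1.05 (SE 0.136, interval 0.74 to 1.35, limma adjusted p 0.000362). In the authors' deposited table Krt19 had a log2 difference of 2.07 (SE 0.809) and a q of 0.0667, above the 0.05 threshold. That difference is not on the log2(value + 1) scale, so its size is not comparable with 1.05. Krt19 rests on few reads, 47.4 to 75.2 in KO livers and 2.7 to 17.2 in WT livers.

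Krt7 (chr15:101411043-101430313, plus strand) was the lowest of the 8 in both groups and fell below the filter, at a mean of 0.360 over the 9 libraries. Its values were 0.301, 0.829, 0.556 and 0.481 in KO livers, against 0.231, 0.104, 0.367, 0.0819 and 0.288 in WT livers. The KO female, at 0.301, lay below the highest WT value, so the groups overlapped. Mean levels were 0.542 ± 0.220 in KO and 0.214 ± 0.121 in WT livers. A two-sided exact permutation test over all ways to choose 4 of the 9 libraries gave p = 0.0317 for Krt7, where the smallest it can give is 0.0159. Leaving out KO replicate 2, 3 or 4 gave an exact p of 0.0714 each. Leaving out KO replicate 1 gave 0.0357, the smallest possible with a KO library left out. Leaving out WT replicate 1, 2, 4 or 5 gave 0.0571 each. Leaving out WT replicate 3 gave 0.0286, the smallest possible with a WT library left out. In the fit without a filter, which called 15.2% of transcripts higher, its log2 fold change was 0.34 with a limma adjusted p of 0.0531, and in the authors' deposited table its q was 0.356. With 27.3 to 69.4 reads in KO livers and 3.5 to 22.7 in WT livers, the call for Krt7 depends on the test.

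Epcam, Cd24a and Prom1 are cell surface proteins. Epcam is an adhesion molecule of cholangiocytes and of liver progenitors that mature hepatocytes lack, Cd24a is a small glycosylated protein also found on immature blood cells, and Prom1, known as CD133, is a membrane protein of microvilli used to sort progenitor cells. Epcam (chr17:87635979-87651129, plus strand) had 7.35, 8.62, 9.59 and 9.47 in KO livers, against 1.01, 0.959, 1.22, 0.595 and 0.648 in WT livers. Its lowest KO value was 6.04 times its highest WT value. Means of 8.76 ± 1.03 in KO and 0.885 ± 0.260 in WT differed 9.90-fold, with a log2 fold change of 2.38 (SE 0.124, interval 2.10 to 2.65, limma adjusted p 1.71e-06).

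Cd24a (chr10:43578284-43584265, plus strand) was the steadiest member among KO livers, with a coefficient of variation of 10.4%. It had 15.3, 15.1, 18.9 and 16.9 in KO livers, against 2.56, 2.00, 2.00, 1.74 and 2.15 in WT livers. The groups were far apart, and its spread was small in both. Means of 16.6 ± 1.73 in KO and 2.09 ± 0.299 in WT differed 7.93-fold, with a log2 fold change of 2.51 (SE 0.098, interval 2.29 to 2.73, limma adjusted p 4.35e-07), the smallest adjusted p of the members.

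Prom1 (chr5:43993620-44102032, minus strand) varied most among KO livers, with a coefficient of variation of 69.9%. It had 25.9, 9.10, 8.04 and 7.56 in KO livers, against 1.09, 1.25, 1.58, 0.370 and 0.517 in WT livers. The first KO value is that of the KO female, and the last 2 WT values are those of the WT males, so the females were higher in both genotypes while the genotypes did not overlap. Means of 12.6 ± 8.84 in KO and 0.961 ± 0.508 in WT differed 13.1-fold, with a log2 fold change of 2.66 (SE 0.343, interval 1.89 to 3.43, limma adjusted p 0.000357). Without the KO female the log2 fold change was 2.27 and Prom1 was still called. Prom1 has 19 annotated transcripts, 12 of them coding, and the value is that of 1 of them. The technical variance in the authors' deposited table was 0.509 for Prom1, 0.473 for Krt7 and 0.429 for Krt19 on the squared natural log scale, and at most 0.0280 for the other 5 members.

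Spp1 encodes osteopontin, a secreted phosphoprotein that binds integrins and Cd44; in liver it is made by cholangiocytes and, in injury, by macrophages and activated stellate cells. Spp1 (chr5:104435118-104441050, plus strand) had 547, 553, 820 and 918 in KO livers, against 38.4, 33.0, 42.9, 31.3 and 57.3 in WT livers. It was the most abundant member in every library. Means of 710 ± 188 in KO and 40.6 ± 10.4 in WT differed 17.5-fold, with a log2 fold change of 4.09 (SE 0.214, interval 3.61 to 4.57, limma adjusted p 1.71e-06), the 9th largest of 10950. In its window above, the TATAAA match begins at -211 and the ACAAAG match at -168 bases from the RefSeq start site. Whether either match is used was not tested.

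**Figure D2:**
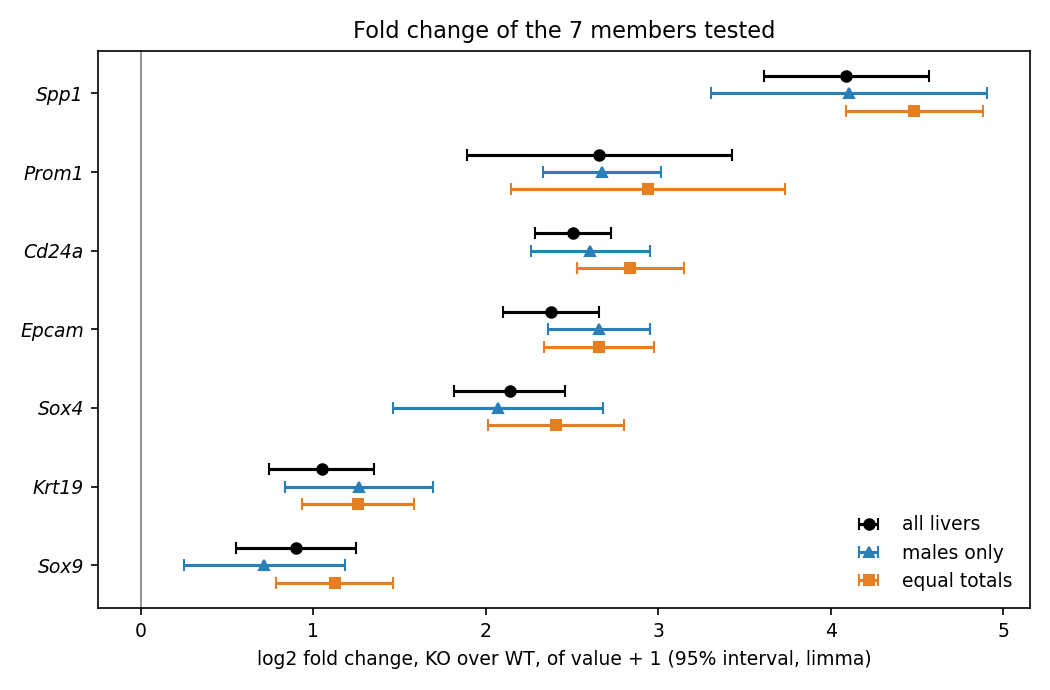
Log2 fold change of value + 1 (KO over WT) of the 7 tested members with 95% intervals from limma, in all livers (circles), in males only (triangles) and at equal library totals (squares). In all livers Spp1 lies highest at 4.09 and Sox9 lowest of the 7 at 0.90.

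Ordered by mean level in KO livers, the members ran Spp1, Cd24a, Prom1, Epcam, Sox4, Krt19, Sox9 and Krt7. The neighbours Cd24a and Prom1, Prom1 and Epcam, Epcam and Sox4, and Krt19 and Sox9 had ranges that overlapped in KO livers. In WT livers Sox9 stood ahead of Sox4 and Krt19 and the other places were the same. There the ranges of Prom1, Epcam, Sox9, Sox4 and Krt19 ran into each other, and Krt7 overlapped Krt19. Spp1 made up 90.3% to 95.5% of the 8-gene sum in KO livers and 84.6% to 91.1% in WT livers. Without Spp1, the sum of the other 7 was 42.5 to 58.5 in KO livers and 4.41 to 6.82 in WT livers. No KO liver was highest throughout: replicate 3 was highest for 4 of the 8 genes, and the female, replicate 1, was lowest for 5 and highest for Prom1.

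Sex was unbalanced between the genotypes, so males were also compared alone, 3 KO against 2 WT. All 7 tested members were again called higher in KO males, where 12.9% of tested transcripts were. Sox9 came closest to the threshold, with a log2 fold change of 0.72 and a limma adjusted p of 0.0494; its mean was 2.38-fold higher in KO males (2.04) than in WT males (0.860). Prom1 was 18.6-fold higher in KO than in WT males and 19.8-fold higher in the KO female than in the mean of WT females. In a fit with genotype and sex, the sex term of Prom1 was 1.01 on the log2 scale, female minus male (SE 0.176, unadjusted p 0.000309, limma adjusted p 0.0584), against 0.457% of transcripts called for sex. The interaction of sex with genotype did not pass for any of the 7 members; for Prom1 it was 0.87 with a limma adjusted p of 0.263. Only 1 female carries the KO genotype, so a difference between the sexes and that animal cannot be told apart among KO livers.

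Other genes of ductal epithelium were described by counts from a list of 25, of which 16 passed the filter. Of the 16, 13 were higher and 1 lower in KO, beside 21.4% higher and 14.5% lower of all tested transcripts. Their median log2 fold change was 1.81 beside 0.03 over all tested transcripts. These values lean on the filter as well. Cldn4, Bicc1, Elf3, Tspan8 and other genes of the 16 had a WT mean below 1 and passed through their KO values. Without a filter, 19 of the 25 were called higher and 0 lower, with a median of 1.05, where 15.2% of all transcripts were called higher. Cldn4, a tight junction claudin, averaged 4.70 ± 0.305 in KO livers, with 0 to 0.176 in the 5 WT livers (limma adjusted p 4.35e-07). Bicc1, an RNA-binding protein whose loss gives kidney cysts in mice, averaged 8.60 ± 1.30 in KO and 0.697 ± 0.0971 in WT (12.3-fold, limma adjusted p 6.01e-07). Elf3, an epithelial ETS factor, differed 15.8-fold and Tspan8, a tetraspanin, had 8.40 ± 2.27 in KO with 0 to 0.817 in WT livers. Slc10a2, the bile acid transporter of cholangiocytes and ileum, was the 1 lower gene, at 5.87 ± 2.34 in KO and 13.8 ± 6.88 in WT (limma adjusted p 0.0422), with an adjusted p of 0.0817 at equal totals, 0.0748 without a filter, 0.00618 in males alone and 8.2e-05 with sex as a term.

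**Figure D3:**
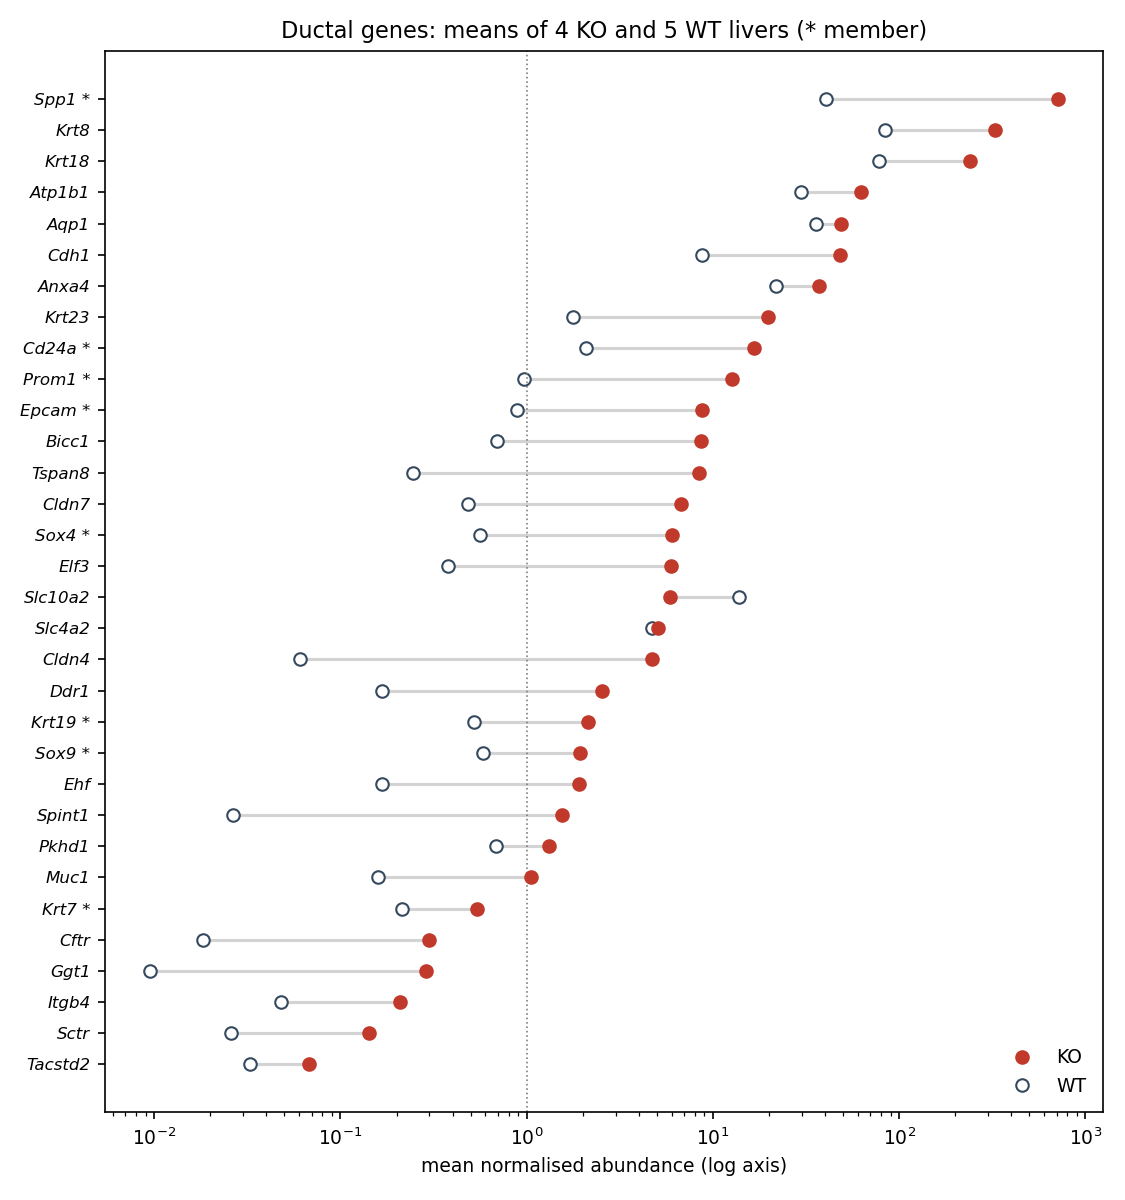
Mean normalised signal of the members (starred) and other listed ductal genes in KO (filled) and WT (open) livers, on a log axis with a dotted line at 1. The members and most other ductal genes are higher in KO; Slc10a2 has the higher mean in WT.

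Below the filter, and chosen after their values were seen, Cftr, the chloride channel of cholangiocytes, had 0.300 ± 0.0559 in KO with 0 to 0.0627 in WT livers, and Muc1, an apical mucin, had 1.05 ± 0.238 in KO and 0.160 ± 0.0238 in WT. Ggt1 was at 0 in 4 of the 5 WT libraries. Among keratins listed, 4 of 9 passed the filter and 4 were higher in KO, beside 21.4% of all tested transcripts. Of these, Krt19 had a WT mean below 1 and passed through its KO values. Without a filter, 5 of the 9 were higher and 0 lower, where 15.2% of all transcripts were called higher. Krt8 and Krt18, the pair made by hepatocytes and ducts alike, were 3.87-fold and 3.10-fold higher. Krt19 is given above, and Krt23 was 11.2-fold higher (19.8 ± 5.05 in KO and 1.77 ± 1.27 in WT, limma adjusted p 0.000107).

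Fetal and progenitor genes were counted from 14, of which 8 passed the filter. Of these, 7 were higher and 0 lower in KO, with a median log2 fold change of 1.08. Some of the 8 had a WT mean below 1 and passed through their KO values. Without a filter, 9 of the 14 were higher and 0 lower, where 15.2% of all transcripts were called higher. For this and the next lists, 21.4% of all tested transcripts were higher and 14.5% lower. Afp, the fetal serum protein, averaged 32.2 ± 11.98 in KO and 1.73 ± 0.184 in WT livers. Igf2, a fetal growth factor, averaged 961 ± 480 in KO and 1.78 ± 0.459 in WT livers. Tnfrsf12a, the receptor for TWEAK, was 4.79-fold and the adhesion molecule Alcam 2.28-fold higher in KO. Of 19 biliary fate regulators, 17 passed the filter, and 6 were higher and 0 lower, with a median of 0.31. Onecut1, a hepatic and biliary factor, averaged 8.45 ± 3.93 in KO and 2.497 ± 1.02 in WT (limma adjusted p 0.00568, but 0.0515 in males alone). In males alone, 1 of the 17 was called. Of 13 SOX genes 5 passed the filter and the 2 called were Sox9 and Sox4, with 4 called at equal totals. Sox9 and Sox4 both had a WT mean below 1 and passed through their KO values. Without a filter the same 2 were called, of 11 SOX genes. Sox2 and Sox10 were listed at 0 in every library. Of 9 osteopontin receptor genes 8 passed, and 5 were higher in KO, led by Itga8 (2.69-fold) and Cd44 (2.41-fold). At equal totals 7 of the 8 were called higher, and in males alone 3.

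The transcripts whose pattern over the 9 libraries lay closest to each member were found by the root mean square difference of centred log2(value + 1). Cd24a was closest to Bicc1 (0.122), Cldn4 (0.13) and Pygb (0.152), and Epcam to Tpm4 (0.14), Cldn4 (0.154) and Cd24a (0.158). Sox9 was closest to Cldn2 (0.080), Sox4 to Tmem54 (0.111) and Krt19 to Ecscr (0.092). Closeness on this scale is not likeness of fold, because the added 1 shrinks changes at low levels. Cldn2 averaged 69.3 in KO and 38.1 in WT livers, a smaller fold than that of Sox9. Tmem54 averaged 3.39 in KO and 0.0442 in WT, a larger fold than that of Sox4. Ecscr averaged 6.37 in KO and 2.79 in WT, a smaller fold than that of Krt19. Cldn4 had a larger fold than Cd24a or Epcam. The distances of Prom1 from Slc39a5 (0.389) and of Spp1 from Plet1 (0.327) were larger. The median over all tested transcripts was 0.525 for Sox9 and 2.05 for Spp1, so these distances are to be read within a member.

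Markers of other liver cells moved in the same comparison, and their part in the members' values was not tested. Their counts stand beside 21.4% higher and 14.5% lower of all tested transcripts, and 12.9% higher in males alone. Of 12 stellate and portal fibroblast markers 12 passed and 11 were higher in KO, with the highest folds of means for Col1a1 (7.63-fold) and Eln (6.98-fold); the summed level was 1.62 to 1.95 times the WT mean in KO livers and 0.722 to 1.27 times in WT livers. Dcn, at 168 ± 23.6 in KO and 132 ± 32.4 in WT, makes up most of that sum. Of 12 macrophage markers 10 passed and 9 were higher, among them Lyz2 (2.35-fold) and Ccr2 (4.74-fold), with a sum of 1.68 to 1.97 in KO and 0.910 to 1.19 in WT. Ccr2 and some of the stellate and portal fibroblast markers had a WT mean below 1 and passed through their KO values. Without a filter, 10 of 12 stellate and portal fibroblast markers and 9 of 12 macrophage markers were higher, beside 15.2% of all transcripts. The members' sum without Spp1 lay at 7.32 to 10.1 times the WT mean in KO and 0.759 to 1.17 times in WT. Neutrophil markers had 2 of 8 tested and both higher, with overlapping sums of 2.28 to 5.18 in KO and 0.477 to 2.57 in WT, and in males alone 0 were called. Lymphocyte markers had 2 of 10 tested and 1 higher (sums of 1.51 to 2.35 in KO and 0.780 to 1.45 in WT), and erythroid markers had 1 of 4 tested higher (1.02 to 2.10 in KO and 0.819 to 1.39 in WT). In males alone 0 erythroid markers were higher and 1, Alas2, was lower (log2 fold change -0.67, limma adjusted p 0.0472).

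The sums of endothelial markers (0.866 to 1.06 in KO, 0.800 to 1.12 in WT), of mesothelial markers (0.910 to 1.37 in KO, 0.805 to 1.37 in WT) and of hepatocyte markers (0.656 to 0.822 in KO, 0.632 to 1.35 in WT) overlapped between the groups. Alb, at 45680 ± 7139 in KO and 62240 ± 23930 in WT, makes up most of the hepatocyte sum. It ranged from 29490 to 90020 among WT livers, so the overlap of that sum says little about the other hepatocyte markers. Of 12 hepatocyte markers 1 was higher and 3 were lower in KO. At equal totals 3 were higher and 0 lower, and in males alone 2 and 0. Of the 3 mesothelial markers tested, 0 were called with limma, 0 had an unadjusted p under 0.05 and 0 had a deposited q under 0.05; at equal totals 2 were called higher. Of 7 endothelial markers 2 were higher and 1 lower, with 0 lower at equal totals and 0 called in males alone. Of 7 exocrine pancreas markers, Prss1 was listed at 0 in every library, and Cela1, which alone passed the filter, averaged 16.7 ± 4.20 in KO and 17.0 ± 7.77 in WT livers. Ctrb1, Cpa1 and Pnlip reached 0.483, 0.293 and 0.180 in KO livers and were listed at 0 in all WT livers. They were above 0 in only 2, 2 and 1 of the KO libraries. None of them was called without a filter (limma adjusted p 0.355, 0.315 and 0.453).

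**Figure D4:**
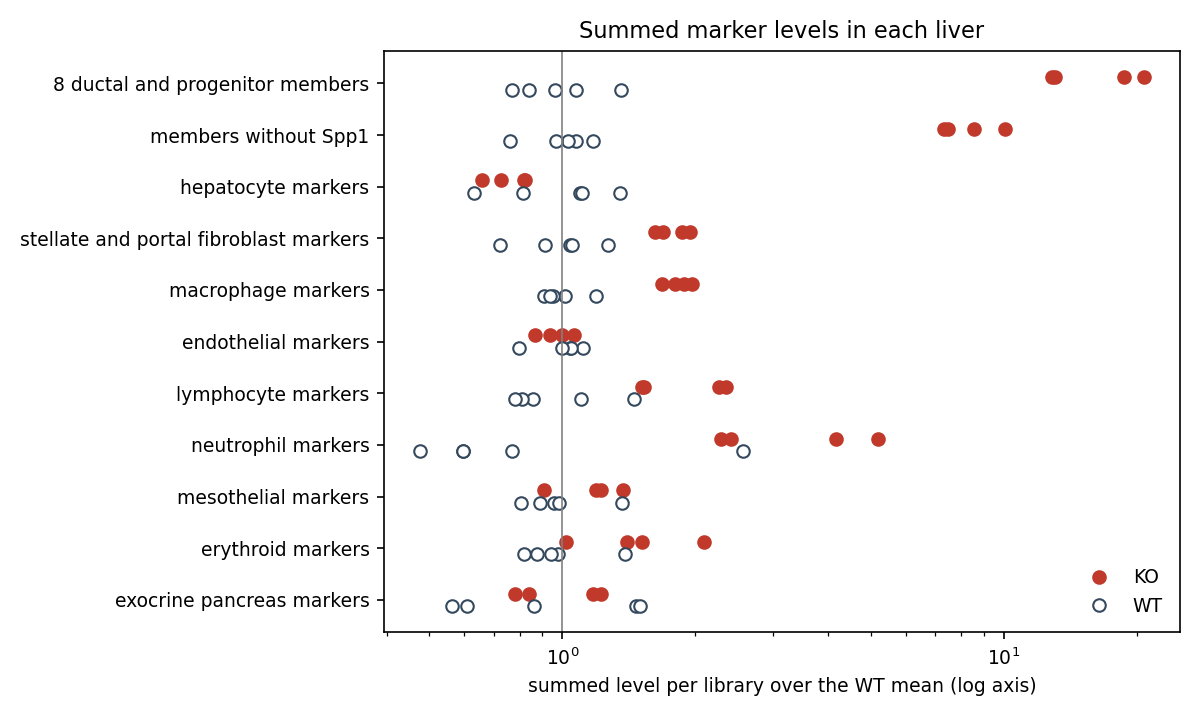
Summed level of each marker list in every library, divided by the WT mean of that list, on a log axis, KO (filled) above WT (open). The members lie far above 1 in all KO libraries, while the hepatocyte and endothelial sums of KO and WT overlap.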

How the data were processed

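Liver polyA RNA of 9 mice was grouped by the genotype in the labels, and sex was read from those labels too. The submitters' processing notes name kallisto, sleuth and mm10, without versions or filters. The deposited columns hold a normalised signal per transcript, 1 per gene; their totals differ between libraries, so they are not TPM. P-values and q-values were deposited by the authors. The deposited coefficient (WT minus KO), its standard error and mean level use the natural log (ln); here the coefficient's sign was turned and both were put on the log2 scale. Depth was recovered from the steps between low values; 48.5% to 67.2% of low values were whole within 0.1 read, so no count test was run. The choice among ambiguous steps was made after they were seen. Read numbers and intervals cover counting or fit error only.

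Transcripts with a mean of at least 1 entered limma 3.58.1 under R 4.3.3 as log2(value + 1), with a genotype term, trended prior variance and a threshold of 0.05 on p adjusted by Benjamini-Hochberg across 10950 transcripts. Each animal is 1 replicate. All lists, members and tests were chosen with earlier results of these data known. In each list the 4 tested genes of lowest adjusted p on either side could be named, and for each tested member the 3 nearest transcripts. The fit was first checked on simulated data. Promoter windows are RefSeq GRCm38.p6; gene coordinates are 1-based and from GENCODE M21 on GRCm38, which mm10 also denotes. Sites for the microRNA itself were not analysed here, and some listed genes are counted but not reported by name.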

Additional observations from a re-analysis of the deposited data

Results flagged for a closer look

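Among 86 groups of one gene in one genotype (43 genes), 8 held a library that stood apart from the others of its group, by a gap that chance gives about 1 time in 20. Prom1 in KO replicate 1, the only KO female, was 25.9 against 7.56 to 9.10 in the other 3. Sox4 in WT replicate 5 was 0.720 against 0.507 to 0.540, still far below KO livers. Krt8 in WT replicate 5 was 130 against 64.8 to 75.5. Ggt1 in WT replicate 3 was 0.0476, with the other 4 at 0. Muc1 in WT replicate 2 was 0.201 against 0.145 to 0.161. Igf2 in WT replicate 1 was 2.59 against 1.46 to 1.72. Lyz2 in KO replicate 4 was 214 against 193 to 197. Lyve1 in KO replicate 4 was 0.848 against 1.23 to 1.27.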

How the results depend on the processing

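For the 7 tested members, 121 alternatives kept the direction and the call, and 1 lost the call: Krt19 in the deposited test (log2 2.07, q 0.0667). Krt7 had a log2 difference of 0.34 and exact permutation p 0.0317. Without a filter it was 0.34 (limma adjusted p 0.0531), and in the deposited test 1.38 (q 0.356). The deposited log2 values of Krt19 and Krt7 are not on the log2(value + 1) scale, so their sizes are not comparable with the others. In males alone Krt7 had 0.45 (exact p 0.2, the smallest 3 against 2 can give). Leaving out 1 library gave 0.25 to 0.42 (exact p 0.0286 to 0.0714). The smallest possible exact p is 0.0357 without a KO library and 0.0286 without a WT library. Transcripts called numbered 3934; with a mean of at least 5 there were 2589 (1231 higher), in males 2216 (1408 higher, 808 lower), and at equal totals 4926 higher and 298 lower. Members called fell to 3 with a mean of at least 5, since that filter tests fewer of them. In the other lists, 57 genes were higher and 5 lower in KO; the lower count was 0 at equal totals, 2 in males and 2 without a filter. Leaving out each library gave 3170 to 3996 transcripts called (1925 to 2387 higher, 1245 to 1609 lower) and 7 members each time. With replicate block (numbers 1 to 4, WT replicate 5 left out) 3552 transcripts were called, 2142 higher and 1410 lower, and 7 members, so no member's call changed; same-numbered KO and WT libraries had correlations of 0.229, 0.0823, -0.184 and 0.113, so the numbers were not taken as pairs. Whether depth sets the calls of Krt7 and Krt19 was not tested.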
